A study of Mus musculus with 10 samples.

Results

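The genes of the cell cycle engine were examined for the promoter mark H3K4me3, trimethylation of histone H3 at lysine 4, in nEnd, a culture model of mouse primitive endoderm. The 40 genes were chosen by name, with no threshold on a measured value. They are 13 cyclins, 7 cyclin-dependent kinases (CDKs), 6 CDK inhibitors, 3 genes of the retinoblastoma (RB) family, 8 E2F genes and 3 CDC25 phosphatases, out of 21670 protein-coding genes read in the same way. A gene counted as marked in a library if at least 1 bp of a peak fell between 1000 bp before and 100 bp after one of its protein-coding transcription start sites. The cells came from 1 embryonic stem cell line that carries an OCT4-mCherry reporter, received no treatment, and were expanded as nEnd on plates coated with mouse embryonic fibroblasts in medium with Activin A, the GSK3 inhibitor CHIR99021 and LIF. They were sorted on mCherry and on surface PDGFRA into Oct4+ nEnd (4 libraries), double positive or DP nEnd (3 libraries) and Pdgfra+ nEnd (3 libraries). PDGFRA is a surface receptor of primitive endoderm, and OCT4, encoded by Pou5f1, is a transcription factor of pluripotent cells. Each library is a CUT&Tag experiment, in which an antibody brings a transposase to the mark and the transposase tags the DNA there.

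Cyclins bind and switch on the CDKs. D cyclins with CDK4 or CDK6, and then E cyclins with CDK2, phosphorylate the RB proteins, which frees the E2F factors to drive genes of DNA replication, and A and B cyclins with CDK2 and CDK1 take the cell through S phase and into mitosis. Inhibitors of the INK4 family (Cdkn2a to Cdkn2d) block CDK4 and CDK6, those of the CIP/KIP family (Cdkn1a and Cdkn1b) block mainly the CDK2 complexes, and CDC25 phosphatases remove inhibitory phosphates from the CDKs. Pluripotent mouse cells are known for a short first gap phase and primitive endoderm is the extra-embryonic lineage that leaves the pluripotent state, so the comparison asks whether the promoters of this engine are marked alike in the 3 populations.

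The libraries held 3477 to 10545 peaks, and Oct4+ nEnd replicates 3 and 4, with 3477 and 4887, had the shortest lists. The highest coverage within a peak had a median of 22 to 59 in Oct4+, 107 to 144 in DP and 67 to 143 in Pdgfra+ nEnd libraries. Every Oct4+ library thus lay below every other library. The number of reads per library is unknown and coverage was not scaled between libraries, so values were compared as ranks, with the percentile of a gene's promoter peak among all peaks of its own library given below (the higher, the more signal). A peak of the same strength stands at a lower percentile in a shorter list. The study's methods describe replicates as biological, 3 per experiment unless stated otherwise, and p-values measure the spread between these libraries. Oct4+ nEnd has 4 libraries, and whether replicate 4 is a separate biological replicate is not stated. The 5 pluripotency markers, with Pou5f1 and Nanog among them, were all marked in every Oct4+ and DP nEnd library, and 0 or 1 of them in the Pdgfra+ nEnd libraries. All 6 primitive endoderm markers, with Gata6 and Foxa2 among them, were marked in every DP and Pdgfra+ nEnd library and 0 to 4 in those of Oct4+ nEnd. Of 15 fibroblast markers 0 to 2 were marked per library, and Col1a1, Col3a1 and Thy1 in none. In sorted bulk cells, a mark on fewer cells and a weaker mark on each cell cannot be told apart.

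Most of the cell cycle genes were marked in every population, and 3, 2 and 2 of the 40 had no promoter peak in any library of Oct4+, DP and Pdgfra+ nEnd. Of the 40 genes, 17 were marked in all 10 libraries, 22 in some and 1, the cyclin A1 gene Ccna1, in none, whereas 3560 of the 21670 protein-coding genes were marked in all 10 and 10187 in none. DP nEnd libraries marked 35 to 38 of the 40 and Pdgfra+ nEnd libraries 32 to 38, beside 39.1% to 44.9% and 33.5% to 50.7% of all protein-coding genes. Oct4+ nEnd libraries marked 36, 34, 20 and 25 in replicates 1 to 4, beside 43.4%, 39.4%, 18.3% and 25.03% of all genes, so the low counts came with the short lists. When every library was cut to its 3477 peaks of highest total signal (the signal summed over the peak), the counts were 19 to 21 in Oct4+ nEnd, 21 to 23 in DP nEnd and 18 to 20 in Pdgfra+ nEnd, beside 18.3% to 20.2% of all genes in the 10 libraries. By class, all 7 kinases were marked in every DP nEnd library and 5 of the 7 in all 10 libraries, whereas none of the 3 RB family genes and 2 of the 6 inhibitors were marked in all 10. Among the marked genes of a library, the median percentile of these genes lay between 56.5 and 69.7, against 52.8 to 57.0 for all marked genes.

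**Figure D1:**
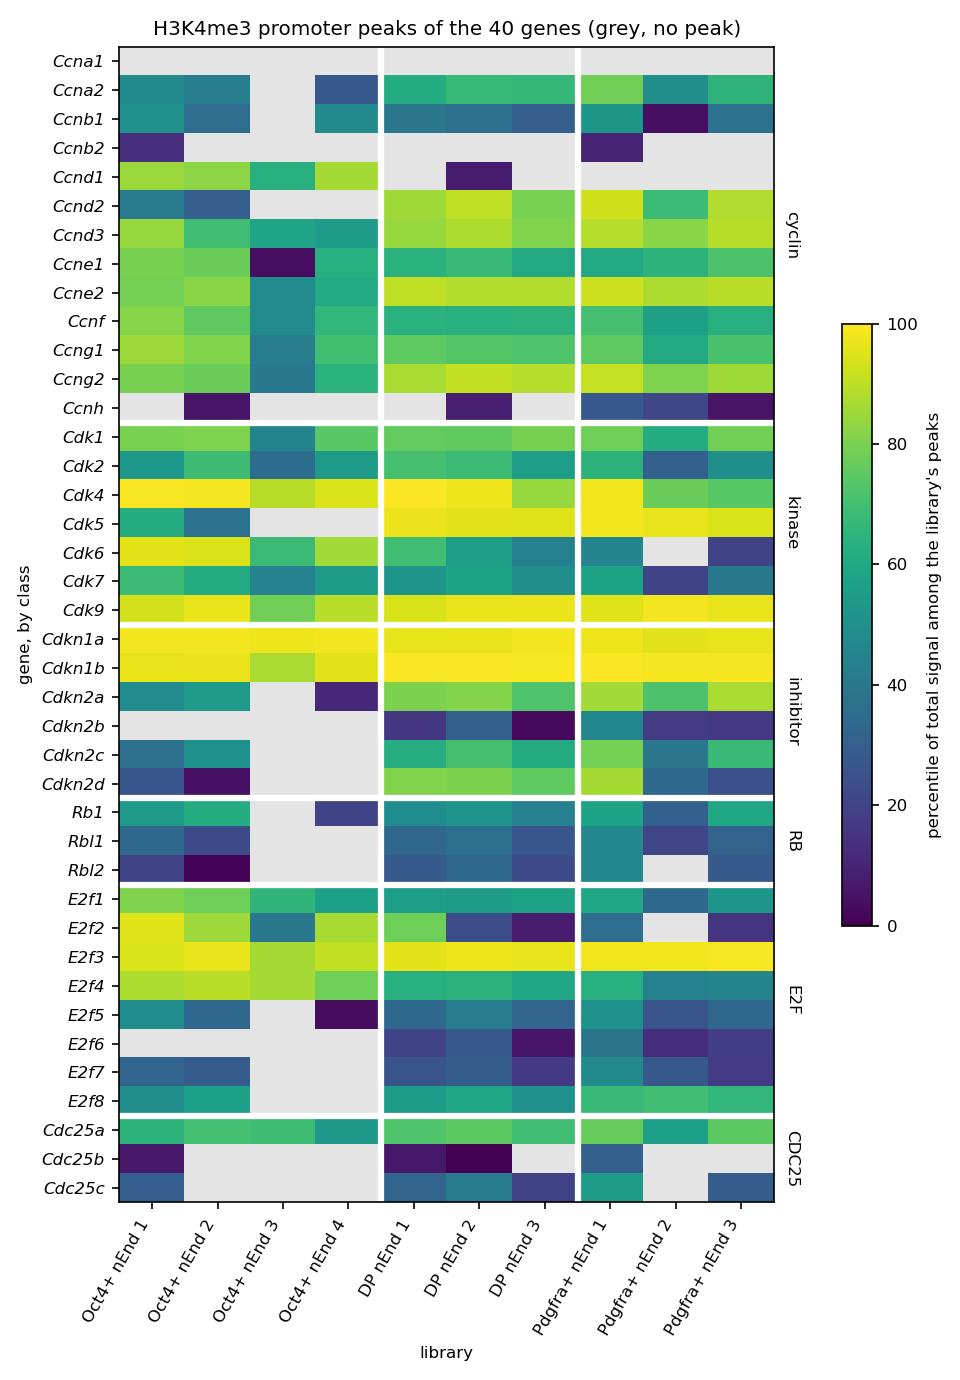
Percentile by total signal of the promoter peak (colour) of each of the 40 genes (rows, by class) in each of the 10 libraries (columns, by population and replicate). Grey cells have no promoter peak, and they are most frequent in the last 2 Oct4+ nEnd columns, where the count of marked genes was 20 and 25.

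Presence was compared first, since it needs no scaling. It still depends on coverage, which was lowest in the Oct4+ nEnd libraries, where a weak peak may be missed. A gene was called where every library of a population and no library of the other had its promoter peak. In Oct4+ against DP nEnd, 0 of the 39 genes tested were called for Oct4+ nEnd (0.401% of 10478 genes tested over the genome) and 2, the INK4 inhibitor gene Cdkn2b and the repressor gene E2f6, for DP nEnd (4.06%). In Oct4+ against Pdgfra+ nEnd the cyclin D1 gene Ccnd1 was called for Oct4+ nEnd (0.689% of 11464 genes), and Cdkn2b and E2f6 again for Pdgfra+ nEnd (2.7%). In DP against Pdgfra+ nEnd, 0 of the 39 genes were called in either direction, where 0.226% and 0.00902% of 11082 genes were. These shares moved with single libraries, and the 26 calls of this pair over the genome became 246 without Pdgfra+ replicate 1, 55 without Pdgfra+ replicate 2 and 46 without DP replicate 2. In the last, 20 genes were called for Pdgfra+ nEnd, Ccnh among them. Against Oct4+ nEnd, the 425 genes called for DP nEnd became 757 of 10155 without Oct4+ replicate 1, with Cdc25c among them. The 310 called for Pdgfra+ nEnd became 557 without Oct4+ replicate 1 and 627 without Pdgfra+ replicate 2. Without Oct4+ replicate 2 they were 333 of 11450 genes, with Ccnh among them. With 4 libraries against 3 the two-sided Fisher's exact test cannot go below 0.029 and with 3 against 3 not below 0.10. No gene passed after the Benjamini-Hochberg adjustment over all genes, where the smallest adjusted p of the 3 pairs were 0.641, 0.842 and 1, and 467, 389 and 0 genes lay under an unadjusted 0.05. The authors' consensus lists hold 33, 36 and 36 of the 40 genes in Oct4+, DP and Pdgfra+ nEnd, with Ccnd1 in that of Oct4+ nEnd only and Cdkn2b, E2f6 and the phosphatase gene Cdc25c in those of DP and Pdgfra+ nEnd. They hold 8527, 9107 and 8762 of all 21670 genes. Over all genes, 584 were in the Oct4+ list and not the DP list and 1164 the reverse, and 931 and 1166 for Oct4+ and Pdgfra+ nEnd. The comparisons of Oct4+ nEnd share the same 4 Oct4+ libraries.

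Cutting the lists to equal length changed which genes were called. In Oct4+ against DP nEnd, Ccnd1 and the kinase gene Cdk7 were then called for Oct4+ nEnd (4.88% of 5780 genes) and Ccna2, Ccnd2, Cdk5, Cdkn2a, Cdkn2c and Cdkn2d for DP nEnd (7.7%). In Oct4+ against Pdgfra+ nEnd, 6 genes (Ccnd1, Cdk6, Cdk7, E2f1, E2f2 and E2f4) were called for Oct4+ nEnd (6.2% of 6143 genes) and 5 (Ccna2, Ccnd2, Cdk5, Cdkn2a and E2f8) for Pdgfra+ nEnd (7.85%). In DP against Pdgfra+ nEnd, where the full lists gave no call, Cdk2 and E2f4 were called for DP nEnd (71 of 5367 genes) and E2f8 for Pdgfra+ nEnd (40). Cdkn2b and E2f6 had no peak among the 3477 strongest of any library.

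Signal and width were then compared by limma, over the 3560 genes marked in all 10 libraries, after the log2 values had been brought to the same distribution in each library (quantile normalization). Differences are given on this log2 scale as the first population minus the second, with the standard error of the fit over 10 libraries (4, 3 and 3) and a p adjusted over the 3560 genes. Of the 17 cell cycle genes in this fit, 3 had a higher total signal in Oct4+ than in DP nEnd (17.8% of all genes tested) and 3 a lower one (18.5%). Against Pdgfra+ nEnd 5 were higher in Oct4+ nEnd (22.2%) and 5 lower (25.3%). Between DP and Pdgfra+ nEnd, 0 of 17 passed in either direction, where 0.562% and 0.0843% of all genes did, and the 17 differences ran from -0.26 (E2f3) to 0.53 (Cdk4). The median difference of the 17 was 0.08 for Oct4+ minus DP nEnd and 0.11 for Oct4+ minus Pdgfra+ nEnd, against -0.01 and -0.03 over all genes tested. Leaving out Oct4+ nEnd replicate 3, after which 22 of the 40 genes could be tested, gave 10 calls against DP nEnd in place of 6, with Ccna2 and Cdkn2a among the genes newly tested, where 1368 of 4705 genes were called, and leaving out Pdgfra+ nEnd replicate 3 lowered those against Pdgfra+ nEnd from 10 to 6, where 1434 of 3561 genes were called. The genes are described one by one below.

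**Figure D2:**
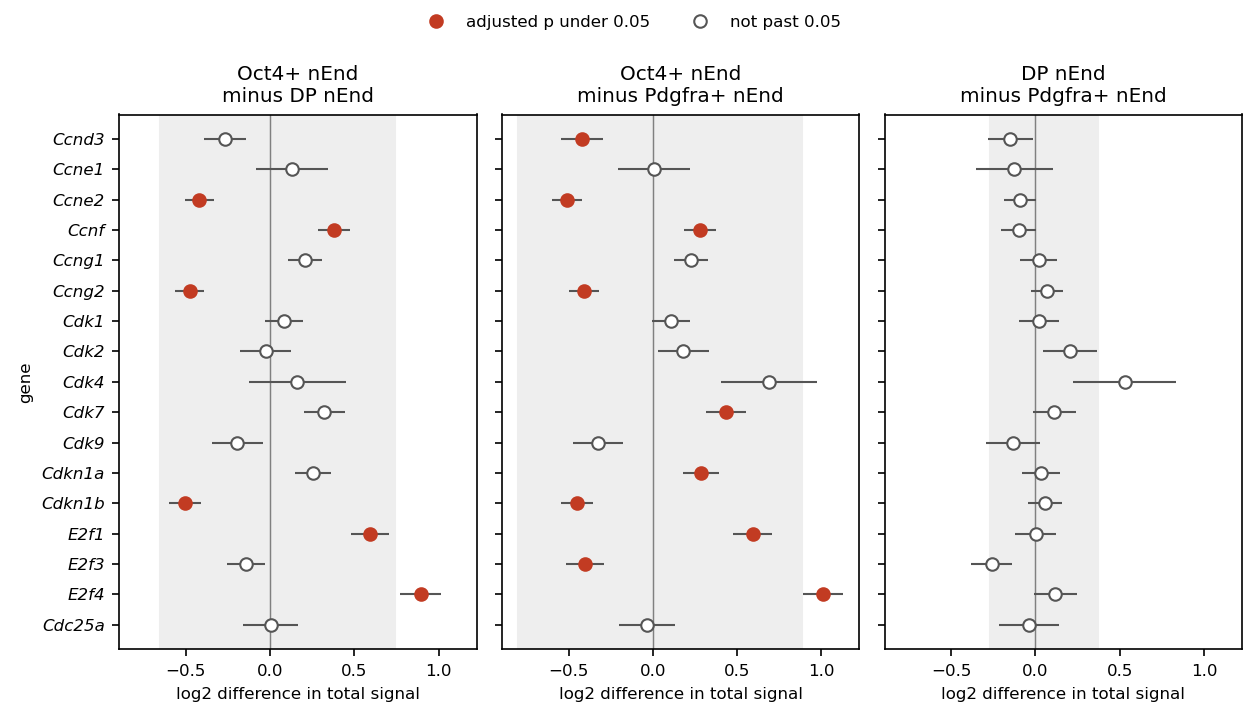
Log2 difference in total signal of the promoter peak, with its standard error, for the 17 genes marked in all 10 libraries (rows), in the 3 pairs of populations (panels). Filled points passed limma at an adjusted p of 0.05, and grey bands span the 5th to 95th percentile of the 3560 genes tested, with E2f4 alone beyond the band in the panels of Oct4+ nEnd.

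This fit leaves out the 23 of the 40 genes without a peak in at least 1 library. When genes with a peak in at least 2 libraries of each population were fitted, with the libraries lacking the peak left out of that gene's fit, 32 of the 40 could be tested, and Ccnd1, Cdkn2b and E2f6 could not. Of these, 6 were higher in Oct4+ than in DP nEnd (11.7% of 7514 genes) and 10 lower (23.5%), and 7 were higher in Oct4+ than in Pdgfra+ nEnd (13.5%) and 15 lower (36.4%). Values from this wider fit are named as such below.

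The D cyclins, which bind CDK4 and CDK6, showed opposite patterns. The peak of Ccnd1 (chr7:144929931-144939925, minus strand) stood at percentiles 85.0, 82.5, 63.1 and 86.7 in Oct4+ nEnd replicates 1 to 4, at 8.17 in replicate 2 of DP nEnd, and was missing from the other DP and all Pdgfra+ nEnd libraries. It was a wide peak, of 7513, 7320, 5784 and 8858 bp in Oct4+ nEnd, and its height was modest, at percentiles 31.8, 23.6, 5.51 and 49.9 by highest coverage. Ccnd1 was thus marked in every library of Oct4+ nEnd and in 1 of the other 6, with no overlap in percentile. Without DP nEnd replicate 2 it would be called by presence against both populations. Ccnd2 (chr6:127125162-127152193), the cyclin D2 gene, had the reverse order, at percentiles 41.1 and 30.2 in replicates 1 and 2 of Oct4+ nEnd, 85.8, 90.3 and 79.9 in DP nEnd and 92.7, 68.0 and 88.2 in Pdgfra+ nEnd. It was missing from Oct4+ nEnd replicates 3 and 4, and every DP and Pdgfra+ value lay above the Oct4+ values. In the wider limma fit, over 2 Oct4+ libraries and all others, the log2 difference was -1.47 ± 0.17 (SE, adjusted p = 9.33e-05) against DP and -1.52 ± 0.17 (SE, adjusted p = 4.74e-05) against Pdgfra+ nEnd. Ccnd3 (chr17:47505051-47599691), the cyclin D3 gene, was marked everywhere, at 84.5, 69.4, 58.5 and 55.4 in Oct4+ nEnd, 84.6, 87.8 and 81.0 in DP nEnd and 88.9, 82.1 and 89.4 in Pdgfra+ nEnd. Its log2 difference by limma was -0.42 ± 0.13 (SE, adjusted p = 0.0158) for Oct4+ minus Pdgfra+ nEnd and -0.27 ± 0.13 (SE, adjusted p = 0.111) for Oct4+ minus DP nEnd, of which the first passed. Without Pdgfra+ nEnd replicate 3 this adjusted p was 0.0669. The first group of Ccnd3 start sites, at chr17:47505051, was marked in 1 Pdgfra+ nEnd library only, and those from chr17:47593470 on in all 10.

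**Figure D3:**
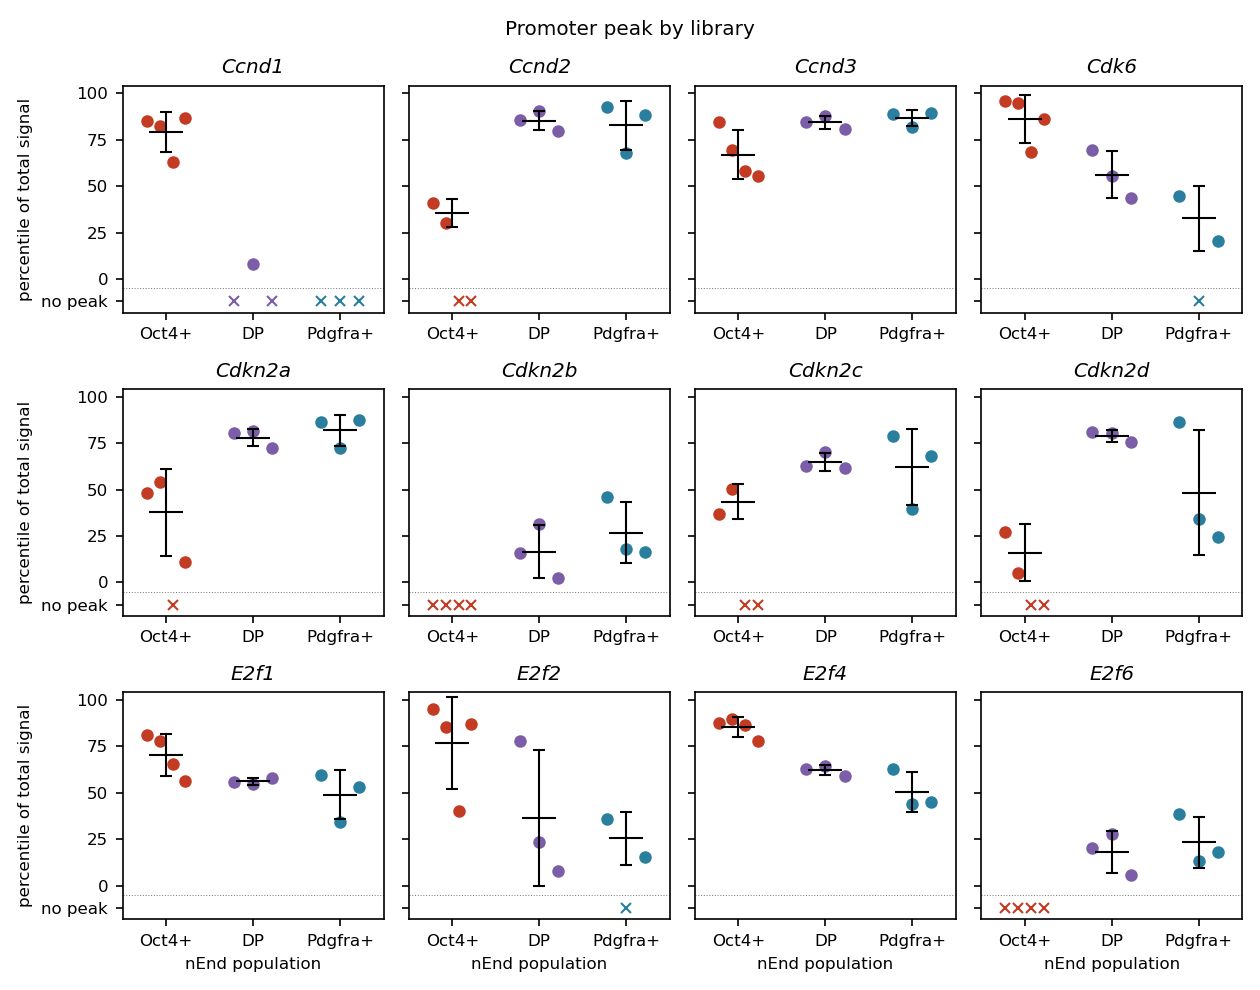
Percentile by total signal of the promoter peak of 12 genes (panels) in each library (points, by population), with the mean and SD over the libraries that have the peak (bars, at least 2 libraries). Crosses under the dotted line are libraries without a peak, which for Ccnd1 are 5 of the 6 DP and Pdgfra+ libraries and for Cdkn2b and E2f6 all 4 Oct4+ libraries.

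Of the E cyclins, which open S phase with CDK2, Ccne2 (chr4:11191351-11204779) stood at 79.1, 82.3, 48.3 and 61.0 in Oct4+ nEnd, 90.5, 88.5 and 88.4 in DP nEnd and 92.2, 87.9 and 89.8 in Pdgfra+ nEnd. All 6 DP and Pdgfra+ values lay above all 4 Oct4+ values. By limma the log2 difference was -0.42 ± 0.09 (SE, adjusted p = 0.00296) for Oct4+ minus DP nEnd and -0.51 ± 0.09 (SE, adjusted p = 0.000565) for Oct4+ minus Pdgfra+ nEnd. Ccne1 did not follow it, with limma differences of 0.13 ± 0.21 (SE, adjusted p = 0.669) and 0.01 ± 0.21 (SE, adjusted p = 0.978), and its percentiles overlapped in the 3 populations.

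Cyclin A2 (Ccna2, chr3:36564865-36572150), which acts in S phase and early mitosis, was marked at 47.8, 42.1 and 27.4 in replicates 1, 2 and 4 of Oct4+ nEnd, 61.5, 67.1 and 66.7 in DP nEnd and 78.2, 49.5 and 64.9 in Pdgfra+ nEnd. All 3 Oct4+ values lay below all others, and the wider fit gave -0.55 ± 0.12 (SE, adjusted p = 0.00329) for Oct4+ minus DP nEnd over 3 Oct4+ libraries. Cyclin F (Ccnf, chr17:24222198-24251484), a subunit of a ubiquitin ligase, was at 81.7, 75.7, 48.2 and 66.1 in Oct4+ nEnd, 63.8, 63.5 and 64.3 in DP nEnd and 70.5, 56.7 and 62.8 in Pdgfra+ nEnd. These percentiles overlap. After quantile normalization the Oct4+ values lay above all others, with limma differences of 0.38 ± 0.10 (SE, adjusted p = 0.00863) for Oct4+ minus DP nEnd and 0.28 ± 0.10 (SE, adjusted p = 0.0299) for Oct4+ minus Pdgfra+ nEnd. Leaving out any of 4 libraries (Oct4+ replicate 1 or 4, Pdgfra+ replicate 1 or 3) raised the second adjusted p to between 0.0536 and 0.102, and leaving out DP replicate 2 raised the first to 0.0551. The second call was also lost in a fit that blocked on the replicate number. Cyclin G2 (Ccng2, chr5:93267257-93276231), an unconventional cyclin of arrested cells, was at 79.3, 77.4, 40.3 and 64.0 in Oct4+ nEnd, 87.3, 91.0 and 88.9 in DP nEnd and 91.2, 80.6 and 85.8 in Pdgfra+ nEnd. Every DP and Pdgfra+ value was above every Oct4+ value, and limma gave -0.48 ± 0.09 (SE, adjusted p = 0.00125) and -0.41 ± 0.09 (SE, adjusted p = 0.00233) for Oct4+ minus DP and minus Pdgfra+ nEnd. Its relative Ccng1 passed in neither pair, at 0.21 ± 0.10 (SE, adjusted p = 0.127) and 0.23 ± 0.10 (SE, adjusted p = 0.0827), and in both, as higher in Oct4+ nEnd, without Oct4+ replicate 3 (adjusted p = 0.0338 and 0.0125).

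Ccnb1, the cyclin B1 gene, was marked in 9 of 10 libraries, between percentiles 4.22 and 53.0, with the populations overlapping. Ccnb2, the other mitotic B cyclin gene, had a peak in 1 Oct4+ and 1 Pdgfra+ nEnd library, at 13.3 and 9.47. Ccnh, whose product is the partner of CDK7, was marked in 1 of 4 Oct4+, 1 of 3 DP and 3 of 3 Pdgfra+ libraries, at percentiles of at most 27.5. Ccna1, a cyclin of the germ line, had no peak at either of its groups of start sites.

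Among the kinases, Cdk6 (chr5:3341485-3531008), a partner of the D cyclins, had percentiles that were mostly highest in Oct4+ nEnd. It stood at 95.9, 94.8, 68.3 and 86.1 in Oct4+ nEnd, 69.3, 55.7 and 43.9 in DP nEnd and 45.0 and 20.4 in replicates 1 and 3 of Pdgfra+ nEnd, with no peak in Pdgfra+ nEnd replicate 2. The lowest Oct4+ value lay just under the highest DP value. By highest coverage the percentiles were 67.3, 60.2, 15.0 and 49.9 in Oct4+ nEnd, 8.45, 7.24 and 1.43 in DP nEnd and 13.5 and 1.16 in replicates 1 and 3 of Pdgfra+ nEnd, so all Oct4+ values lay above the others and the DP and Pdgfra+ values overlapped. The width of 5868, 5206, 4818 and 5363 bp in Oct4+ nEnd overlapped the 5104, 5222 and 4772 bp of DP nEnd. In the wider fit the log2 difference in total signal was 1.19 ± 0.15 (SE, adjusted p = 0.000136) for Oct4+ minus DP nEnd and, over 2 Pdgfra+ libraries, 1.72 ± 0.18 (SE, adjusted p = 1.46e-05) for Oct4+ minus Pdgfra+ nEnd. Cdk4, the other partner of the D cyclins, passed in no pair, with a limma difference of 0.69 ± 0.29 (SE, adjusted p = 0.0646) for Oct4+ minus Pdgfra+ nEnd. It passed with median centring and without DP replicate 1, DP replicate 3 or Pdgfra+ replicate 1 (adjusted p = 0.0103 to 0.0386). It also passed in a fit that blocked on the replicate number, described at the end. Its peak also covered the promoter of March9 in 4 of the 10 libraries and that of Tspan31 in 4.

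Cdk5 (chr5:24418241-24423530), an atypical kinase best known in neurons, was at 61.8 and 37.3 in replicates 1 and 2 of Oct4+ nEnd, 96.9, 95.7 and 95.3 in DP nEnd and 97.9, 96.3 and 94.2 in Pdgfra+ nEnd. Its peak also covers the promoter of the anion exchanger gene Slc4a2 in all 8 libraries that have it, so the signal cannot be assigned to either gene. The wider fit gave -1.73 ± 0.17 (SE, adjusted p = 2.92e-05) and -1.82 ± 0.17 (SE, adjusted p = 1.08e-05) for Oct4+ minus DP and minus Pdgfra+ nEnd, over 2 Oct4+ libraries.

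Cdk7 (chr13:100702631-100730939), the CDK-activating kinase and part of the transcription factor TFIIH, was at 68.5, 61.7, 44.3 and 54.4 in Oct4+ nEnd, 52.5, 58.1 and 49.7 in DP nEnd and 57.5, 20.6 and 40.5 in Pdgfra+ nEnd. These percentiles overlapped, and limma gave 0.43 ± 0.12 (SE, adjusted p = 0.0106) for Oct4+ minus Pdgfra+ nEnd and 0.32 ± 0.12 (SE, adjusted p = 0.0524) for Oct4+ minus DP nEnd. Without Pdgfra+ nEnd replicate 2 the first adjusted p was 0.0663. The second was 0.0490, 0.0151 and 0.0478 without Oct4+ replicate 1, 2 or 3 and 0.0482 in the wider fit, so it lay on either side of the threshold. Cdk1 and Cdk2, the kinases of S phase and mitosis, passed in no pair of the main fit. Without Oct4+ replicate 1, Cdk2 passed as higher in Oct4+ than in Pdgfra+ nEnd. For Cdk1 the limma differences were 0.08 ± 0.11 (SE, adjusted p = 0.593) and 0.11 ± 0.11 (SE, adjusted p = 0.467) for Oct4+ minus DP and minus Pdgfra+ nEnd, and for Cdk2, whose peak also covers the promoter of Pmel in all 10 libraries, -0.03 ± 0.15 (SE, adjusted p = 0.907) and 0.18 ± 0.15 (SE, adjusted p = 0.355). Cdk9, the kinase of the elongation factor P-TEFb, had high percentiles throughout, from 78.2 to 98.1, and passed in no pair of the main fit. Without Oct4+ replicate 2 or Pdgfra+ replicate 1 it passed as lower in Oct4+ than in Pdgfra+ nEnd.

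The promoters of Cdk1 and Ccnb1 are shown as examples of cell cycle promoters whose peaks overlapped in percentile between the 3 populations, 5′ to 3′, as the 300-base RefSeq promoter windows on GRCm38, which begin 250 bases before the start. Capitals mark the E2F sites (TTTCCCGC, TTTCGCGC, TTTGCCGC or TTTGGCGC), the cell cycle homology region or CHR (TTTGAA or TTCGAA) and CCAAT boxes, on both strands.
Cdk1 (chr10:69352863-69353162, minus strand): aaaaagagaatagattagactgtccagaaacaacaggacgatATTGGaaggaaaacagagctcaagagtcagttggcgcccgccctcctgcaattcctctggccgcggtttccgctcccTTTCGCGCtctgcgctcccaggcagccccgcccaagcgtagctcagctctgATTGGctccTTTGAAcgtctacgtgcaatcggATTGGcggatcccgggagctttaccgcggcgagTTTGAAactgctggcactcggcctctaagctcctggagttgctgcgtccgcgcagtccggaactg
Ccnb1 (chr13:100786437-100786736, minus strand): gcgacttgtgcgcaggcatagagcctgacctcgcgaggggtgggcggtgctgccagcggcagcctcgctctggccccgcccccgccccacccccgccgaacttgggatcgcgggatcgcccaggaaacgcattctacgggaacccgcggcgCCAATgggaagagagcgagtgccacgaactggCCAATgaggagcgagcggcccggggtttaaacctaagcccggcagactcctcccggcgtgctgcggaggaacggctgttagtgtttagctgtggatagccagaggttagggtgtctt
The Cdk1 window holds 1 E2F sequence, 2 CHR and 3 CCAAT, and the Ccnb1 window 2 CCAAT. A peak covered the whole Cdk1 window in all 10 libraries and that of Ccnb1 in 9.

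The 4 genes of the INK4 family, named for inhibitors that hold CDK4 and CDK6 in check, had a promoter peak in every DP and Pdgfra+ nEnd library, which at Cdkn2a lay at the promoter of p19Arf and not at that of the inhibitor p16Ink4a. In Oct4+ nEnd, Cdkn2a was marked in 3 of 4 libraries, Cdkn2c and Cdkn2d in replicates 1 and 2 and not in the short lists of replicates 3 and 4, and Cdkn2b in 0 of 4. Cdkn2a (chr4:89274471-89294653) stood at 48.3, 54.2 and 11.1 in replicates 1, 2 and 4 of Oct4+ nEnd, 80.3, 81.3 and 72.5 in DP nEnd and 86.3, 72.3 and 87.3 in Pdgfra+ nEnd. All DP and Pdgfra+ values lay above all Oct4+ values, and the wider fit, over 3 Oct4+ libraries, gave -0.93 ± 0.13 (SE, adjusted p = 0.000201) for Oct4+ minus DP nEnd and -1.15 ± 0.13 (SE, adjusted p = 2.76e-05) for Oct4+ minus Pdgfra+ nEnd. By highest coverage the differences in the same fit were -0.56 ± 0.16 (SE, adjusted p = 0.0273) and -0.74 ± 0.16 (SE, adjusted p = 0.00312).

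Cdkn2a has 2 promoters that give different proteins, p19Arf, which stabilises p53, from the upstream one and the INK4 inhibitor p16Ink4a from the downstream one. The start of Cdkn2a-202 (the p19Arf transcript, chr4:89294653) was marked in 3 of 4 Oct4+, 3 of 3 DP and 3 of 3 Pdgfra+ nEnd libraries, and that of Cdkn2a-201 (p16Ink4a, chr4:89282192) in 0 of 10. The values of Cdkn2a above are thus those of the p19Arf promoter. The windows of both promoters are shown for this contrast, chosen after their values were seen, with Cdkn2b, the neighbour on the same chromosome.
Cdkn2a upstream, p19Arf (chr4:89294570-89294869, minus strand): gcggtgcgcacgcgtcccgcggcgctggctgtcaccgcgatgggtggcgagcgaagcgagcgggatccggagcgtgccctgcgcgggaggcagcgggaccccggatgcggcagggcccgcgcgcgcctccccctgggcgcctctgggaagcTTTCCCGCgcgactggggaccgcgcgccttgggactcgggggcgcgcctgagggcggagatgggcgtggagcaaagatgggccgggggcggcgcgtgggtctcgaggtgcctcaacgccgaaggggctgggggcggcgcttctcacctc
Cdkn2a downstream, p16Ink4a (chr4:89282143-89282442, minus strand): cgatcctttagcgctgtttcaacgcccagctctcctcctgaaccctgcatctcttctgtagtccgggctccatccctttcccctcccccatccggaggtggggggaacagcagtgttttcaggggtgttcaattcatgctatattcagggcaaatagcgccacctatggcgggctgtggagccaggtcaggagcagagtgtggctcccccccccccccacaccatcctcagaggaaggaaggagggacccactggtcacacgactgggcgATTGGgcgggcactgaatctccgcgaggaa
Cdkn2b (chr4:89310983-89311282, minus strand): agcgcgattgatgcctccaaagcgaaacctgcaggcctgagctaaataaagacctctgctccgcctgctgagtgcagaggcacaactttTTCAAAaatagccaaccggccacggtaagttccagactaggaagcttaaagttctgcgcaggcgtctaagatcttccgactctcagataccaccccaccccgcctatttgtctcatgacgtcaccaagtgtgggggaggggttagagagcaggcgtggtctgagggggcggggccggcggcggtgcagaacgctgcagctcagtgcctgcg
Capitals mark the same motifs as above. The upstream Cdkn2a window holds 1 E2F sequence, the downstream one 1 CCAAT on the minus strand, and the Cdkn2b window 1 CHR.

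Cdkn2b (chr4:89306299-89311039), which encodes p15Ink4b, had no promoter peak in Oct4+ nEnd and stood at 15.8, 31.2 and 2.55 in DP nEnd and 45.8, 17.9 and 16.6 in Pdgfra+ nEnd. All 6 were under the median of their library. Cdkn2c (chr4:109660876-109667189), for p18Ink4c, was at 37.0 and 50.1 in replicates 1 and 2 of Oct4+ nEnd, 62.5, 70.5 and 61.7 in DP nEnd and 79.0, 39.6 and 67.9 in Pdgfra+ nEnd. The DP values lay above both Oct4+ values and the Pdgfra+ values overlapped them, and the wider fit gave -0.67 ± 0.16 (SE, adjusted p = 0.00708) and -0.78 ± 0.16 (SE, adjusted p = 0.00211) over 2 Oct4+ libraries. Cdkn2d (chr9:21288410-21291407), for p19Ink4d, was at 26.9 and 5.07 in replicates 1 and 2 of Oct4+ nEnd, 81.1, 80.2 and 75.3 in DP nEnd and 86.6, 34.1 and 24.4 in Pdgfra+ nEnd. In the 3 DP libraries and Pdgfra+ nEnd replicate 1 its peak ran on to the promoter of Kri1, with widths of 6391, 8259 and 6846 bp in DP nEnd against 3468 and 3097 bp in Oct4+ nEnd replicates 1 and 2. By highest coverage, which a joined neighbour can also raise, Cdkn2d was at 35.0 and 7.80 in replicates 1 and 2 of Oct4+ nEnd, 58.0, 54.3 and 49.5 in DP nEnd and 64.5, 42.7 and 25.1 in Pdgfra+ nEnd, where the Pdgfra+ values overlapped those of Oct4+ nEnd. The wider fit gave Cdkn2d differences in total signal of -1.51 ± 0.27 (SE, adjusted p = 0.00143) for Oct4+ minus DP and -1.02 ± 0.27 (SE, adjusted p = 0.00889) for Oct4+ minus Pdgfra+ nEnd, and in highest coverage of -0.69 ± 0.21 (SE, adjusted p = 0.0326) and -0.67 ± 0.21 (SE, adjusted p = 0.0268), over 2 Oct4+ libraries.

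The CIP/KIP inhibitors were marked in all 10 libraries and ranked near the top. Cdkn1a (chr17:29090976-29100727), the p53 target p21, was at 98.2, 98.1, 97.3 and 98.3 in Oct4+ nEnd, 96.1, 96.7 and 98.1 in DP nEnd and 97.4, 95.6 and 96.4 in Pdgfra+ nEnd. The limma difference was 0.29 ± 0.11 (SE, adjusted p = 0.0426) for Oct4+ minus Pdgfra+ nEnd, and this call held in 8 of 17 alternatives, with an adjusted p of 0.0506 to 0.0994 in the other 9. Cdkn1a has 3 groups of start sites, of which only the middle one was marked in Pdgfra+ replicate 2, without which the call was lost. The other libraries marked all 3. The peak was 8930 to 11212 bp wide in Oct4+ and 3192 to 9923 bp in Pdgfra+ nEnd, and total signal is summed over that width. Cdkn1b (chr6:134920401-134925513), which encodes p27, was at 96.8, 97.2, 87.4 and 96.0 in Oct4+ nEnd, 99.2, 99.3 and 99.1 in DP nEnd and 99.3, 98.6 and 98.7 in Pdgfra+ nEnd. Every DP and Pdgfra+ value was above every Oct4+ value, at -0.50 ± 0.09 (SE, adjusted p = 0.00154) for Oct4+ minus DP and -0.45 ± 0.09 (SE, adjusted p = 0.00223) for Oct4+ minus Pdgfra+ nEnd. With median centring in place of quantile normalization the 2 differences were -0.30 (adjusted p = 0.115) and -0.23 (adjusted p = 0.197), so both calls were lost.
Cdkn1b (chr6:134920151-134920450, plus strand): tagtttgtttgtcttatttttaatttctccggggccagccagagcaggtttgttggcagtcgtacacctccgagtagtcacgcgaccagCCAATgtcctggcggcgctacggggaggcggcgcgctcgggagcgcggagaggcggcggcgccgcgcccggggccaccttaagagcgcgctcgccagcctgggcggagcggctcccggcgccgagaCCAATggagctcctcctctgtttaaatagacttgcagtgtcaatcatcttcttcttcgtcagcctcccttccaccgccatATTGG
Its RefSeq window, shown as that of the inhibitor with the largest difference among the 17 genes marked in all 10 libraries, holds 3 CCAAT, 2 on the plus and 1 on the minus strand, and a peak covered it whole in all 10 libraries.

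The proteins of the RB family hold E2F factors inactive. None of its 3 genes was marked in the short list of Oct4+ nEnd replicate 3, which marked 18.3% of all genes. Rb1 itself was marked in 9 of 10 libraries, all but Oct4+ nEnd replicate 3, between percentiles 20.5 and 61.8. Rbl1 (chr2:157145893-157204534), for p107, was at 33.2 and 22.8 in replicates 1 and 2 of Oct4+ nEnd, 33.7, 36.6 and 26.9 in DP nEnd and 46.4, 20.9 and 31.8 in Pdgfra+ nEnd. Rbl2 (chr8:91070057-91123844), for p130, was at 20.6 and 0.895 in replicates 1 and 2 of Oct4+ nEnd, 28.1, 33.5 and 22.7 in DP nEnd and 46.4 and 28.4 in replicates 1 and 3 of Pdgfra+ nEnd. The populations overlapped for Rbl1, and for Rbl2 both Oct4+ values lay below all others. In the wider fit over 2 Oct4+ libraries Rbl2 gave -0.42 ± 0.13 (SE, adjusted p = 0.0294) for Oct4+ minus DP and -0.60 ± 0.14 (SE, adjusted p = 0.00602) for Oct4+ minus Pdgfra+ nEnd. Rbl1 gave -0.25 ± 0.13 (SE, adjusted p = 0.153) and -0.44 ± 0.13 (SE, adjusted p = 0.0158), of which the second passed.

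By total signal in the main fit, the peaks at E2f1 and E2f4 were higher in Oct4+ nEnd than in both other populations, that at E2f4 being mostly shared with a neighbour. In the same fit the E2f3 peak was lower than in Pdgfra+ nEnd, and E2f6 was unmarked in Oct4+ nEnd. E2f1 (chr2:154559407-154569892), an activator of replication genes, was at 80.9, 77.8, 65.3 and 56.6 in Oct4+ nEnd, 55.9, 54.6 and 58.1 in DP nEnd and 59.7, 34.3 and 52.9 in Pdgfra+ nEnd. The Oct4+ values overlapped the others in these raw percentiles, and after quantile normalization all 4 lay above all others, with limma differences of 0.59 ± 0.12 (SE, adjusted p = 0.00189) and 0.59 ± 0.12 (SE, adjusted p = 0.00131) for Oct4+ minus DP and minus Pdgfra+ nEnd. E2f1 also passed by highest coverage, at 0.52 ± 0.17 (SE, adjusted p = 0.0401) and 0.55 ± 0.17 (SE, adjusted p = 0.0258), with no pass by width. Its call by total signal held in all 17 alternatives in both pairs. By highest coverage the call against DP nEnd was lost in 8 of 17, with median centring (adjusted p = 0.0685) and without Oct4+ replicate 3 or 4, any DP replicate or Pdgfra+ replicate 1 or 2 (adjusted p = 0.0529 to 0.192), and that against Pdgfra+ nEnd without Pdgfra+ replicate 1 or 2 (adjusted p = 0.0849 and 0.143). E2f2 (chr4:136172394-136196057), a second activator, was at 94.9, 85.4, 40.02 and 86.9 in Oct4+ nEnd, 77.8, 23.5 and 8.06 in DP nEnd and 35.6 and 15.4 in replicates 1 and 3 of Pdgfra+ nEnd. Its peak was 11115, 10322, 3182 and 10622 bp wide in Oct4+ nEnd and 11264, 4228 and 2980 bp in DP nEnd, and in Oct4+ replicates 1, 2 and 4 and DP replicate 1 it reached a start site further down the gene, so these percentiles are those of joined peaks. The E2f2 values were read at the upstream start site only. A RefSeq promoter window further down, at chr4:136180532-136180831, was covered whole in 3 of 4 Oct4+, 3 of 3 DP and 3 of 3 Pdgfra+ libraries, so that start was marked in every population. By highest coverage the E2f2 percentiles were 47.7, 35.3, 19.6 and 62.6 in Oct4+ nEnd and 34.1, 18.3 and 5.16 in DP nEnd, which overlap. The wider fit gave E2f2 differences in total signal of 1.38 ± 0.33 (SE, adjusted p = 0.00699) for Oct4+ minus DP nEnd and, over 2 Pdgfra+ libraries, 1.61 ± 0.37 (SE, adjusted p = 0.00395) for Oct4+ minus Pdgfra+ nEnd. By highest coverage the E2f2 differences in that fit were 0.60 ± 0.19 (SE, adjusted p = 0.0431) and 0.68 ± 0.22 (SE, adjusted p = 0.0337).

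E2f4 (chr8:105297663-105305370), a repressive E2F of resting cells that also serves the RB-like proteins, was at 87.7, 89.7, 86.4 and 77.7 in Oct4+ nEnd, 62.7, 64.3 and 59.0 in DP nEnd and 62.7, 43.8 and 44.8 in Pdgfra+ nEnd. All 4 Oct4+ values lay above all others, and limma gave 0.89 ± 0.12 (SE, adjusted p = 0.00015) and 1.01 ± 0.12 (SE, adjusted p = 3.78e-05) for Oct4+ minus DP and minus Pdgfra+ nEnd, the largest differences of the 17 genes. It spanned 7007, 7484, 6519 and 5994 bp in Oct4+ nEnd, 7231, 6439 and 5028 bp in DP nEnd and 4895, 1896 and 2712 bp in Pdgfra+ nEnd, with a limma difference in width of 0.91 ± 0.20 (SE, adjusted p = 0.00932) for Oct4+ minus Pdgfra+ nEnd, which without Pdgfra+ nEnd replicate 3 had an adjusted p of 0.0541, and 0.26 ± 0.20 (SE, adjusted p = 0.626) for Oct4+ minus DP nEnd. By highest coverage the differences were 0.12 ± 0.16 (SE, adjusted p = 0.667) and 0.01 ± 0.16 (SE, adjusted p = 0.962) for Oct4+ minus DP and minus Pdgfra+ nEnd. In 9 of the 10 libraries, Pdgfra+ nEnd replicate 2 being the exception, the peak also covered the promoter of the neighbour Exoc3l, so the signal cannot be assigned to E2f4 alone.

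**Figure D4:**
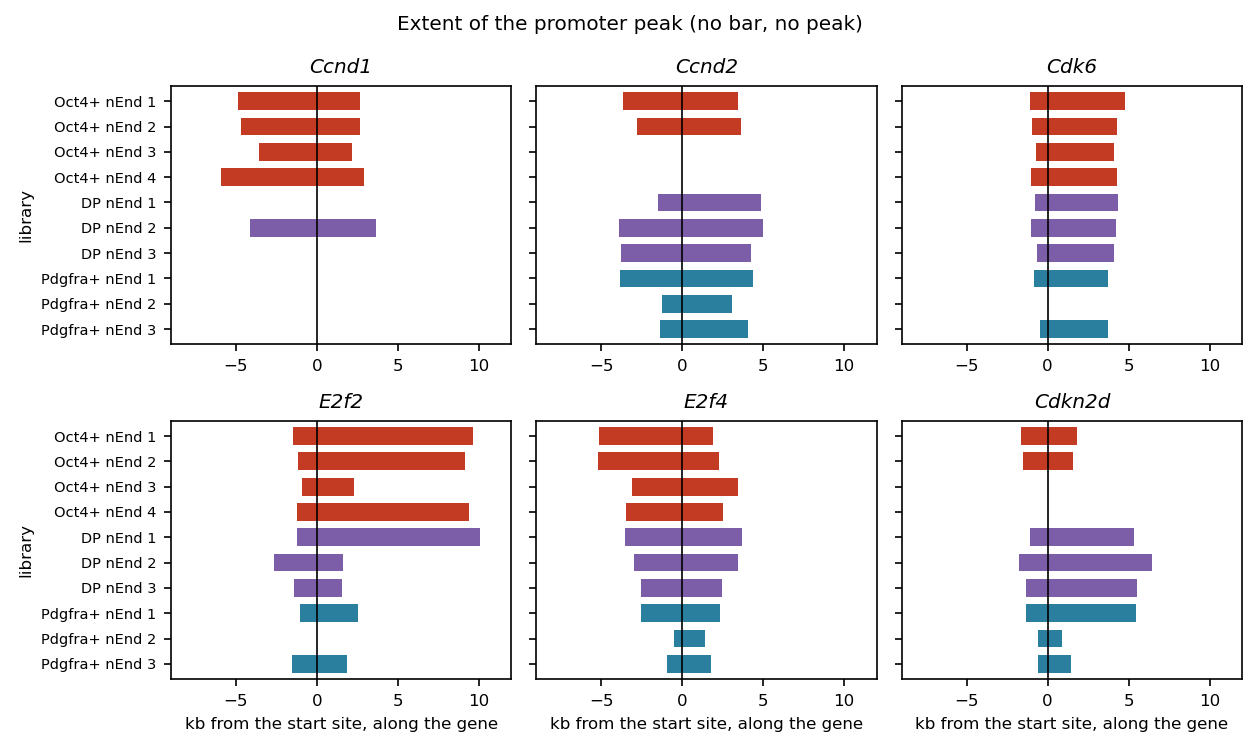
Extent of the promoter peak (bars) along 6 genes (panels) in each library (rows), in kb from the first start site with positive values in the direction of transcription. The E2f2 peak runs far into the gene in Oct4+ replicates 1, 2 and 4 and DP replicate 1, where it is 10322 to 11264 bp wide, and the Cdkn2d peak runs past the end of this short gene in DP nEnd and Pdgfra+ replicate 1.

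E2f3 (chr13:29906575-29986063), the third activator, ranked high in every library, at 94.3, 96.9, 86.6 and 90.9 in Oct4+ nEnd, 96.0, 97.4 and 96.5 in DP nEnd and 97.7, 97.7 and 98.8 in Pdgfra+ nEnd. Here the direction was the opposite one, with limma differences of -0.40 ± 0.11 (SE, adjusted p = 0.0112) for Oct4+ minus Pdgfra+ nEnd and -0.14 ± 0.11 (SE, adjusted p = 0.349) for Oct4+ minus DP nEnd, of which the first passed. It was lost with median centring (adjusted p = 0.130) and without Pdgfra+ nEnd replicate 3 (adjusted p = 0.0561). Both groups of E2f3 start sites were marked in all 10 libraries. E2f6 (chr12:16810963-16839742), a repressor that works without RB proteins, had no promoter peak in Oct4+ nEnd and stood at 20.3, 27.9 and 5.91 in DP nEnd and 38.7, 13.0 and 18.2 in Pdgfra+ nEnd, all under the median.
E2f6 (chr12:16810715-16811014, plus strand): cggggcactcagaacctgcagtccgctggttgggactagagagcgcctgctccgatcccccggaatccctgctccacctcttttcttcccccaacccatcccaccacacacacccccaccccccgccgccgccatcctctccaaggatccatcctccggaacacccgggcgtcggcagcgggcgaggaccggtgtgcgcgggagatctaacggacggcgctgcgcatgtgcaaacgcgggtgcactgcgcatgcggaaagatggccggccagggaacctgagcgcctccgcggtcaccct
The E2f6 window, shown for the presence call, holds none of the motif sequences searched, and a peak covered it whole in 0 of 4 Oct4+, 3 of 3 DP and 3 of 3 Pdgfra+ nEnd libraries.

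The atypical repressors E2f7 and E2f8, which restrain E2f1 targets late in S phase, had a peak in all DP and Pdgfra+ libraries. In Oct4+ nEnd they had it in replicates 1 and 2 and not in the short lists of replicates 3 and 4. E2f7 was at 32.7 and 29.1 in replicates 1 and 2 of Oct4+ nEnd, 25.9, 29.5 and 17.0 in DP nEnd and 47.4, 27.5 and 18.0 in Pdgfra+ nEnd, with the populations overlapping. E2f8 (chr7:48866429-48881596) was at 49.6 and 56.5 in replicates 1 and 2 of Oct4+ nEnd, 54.5, 58.6 and 50.1 in DP nEnd and 67.2, 69.3 and 66.3 in Pdgfra+ nEnd. The Pdgfra+ values of E2f8 lay above all others, and the wider fit gave -0.60 ± 0.15 (SE, adjusted p = 0.00831) for Oct4+ minus Pdgfra+ nEnd over 2 Oct4+ libraries with -0.39 ± 0.14 (SE, adjusted p = 0.323) for DP minus Pdgfra+ nEnd. E2f5, a repressive E2F, was marked in 9 of 10 libraries between percentiles 3.35 and 51.5, with the populations overlapping. In the wider fit E2f5 gave -0.13 ± 0.12 (SE, adjusted p = 0.42) for Oct4+ minus DP and -0.34 ± 0.12 (SE, adjusted p = 0.0324) for Oct4+ minus Pdgfra+ nEnd, of which the second passed.

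Of the CDC25 phosphatases, Cdc25a, which acts before S phase, was marked in all 10 libraries and passed in no pair (0.00 ± 0.16 (SE, adjusted p = 0.994) and -0.04 ± 0.16 (SE, adjusted p = 0.874) for Oct4+ minus DP and minus Pdgfra+ nEnd). Cdc25b and Cdc25c, which act at the entry into mitosis, were marked in 4 and 6 of 10 libraries. The 4 peaks of Cdc25b were weak and also covered the promoter of Spef1, with percentiles of at most 30.6. Cdc25c was marked in 1 of 4 Oct4+, 3 of 3 DP and 2 of 3 Pdgfra+ libraries, at 20.5 to 55.4.

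Fewer differences were seen by highest coverage and width than by total signal. By highest coverage 2 of 17 genes (E2f1 higher and Ccne2 lower in Oct4+ nEnd) passed limma in Oct4+ against DP nEnd, where 12.4% of all genes did, and 3 (E2f1 higher, Ccnd3 and Ccne2 lower) in Oct4+ against Pdgfra+ nEnd, where 15.3% did. In Oct4+ against DP nEnd 0 passed without Oct4+ replicate 3, DP replicate 1 or DP replicate 2 and 1 without Oct4+ replicate 4, DP replicate 3 or Pdgfra+ replicate 1. The calls over all genes fell as well in these 6 fits, from 443 to 372, 162 and 156 and to 266, 165 and 385. In Oct4+ against Pdgfra+ nEnd Ccnd3 alone of these passed without Pdgfra+ replicate 1, and without Pdgfra+ replicate 2 E2f1, Ccnd3 and Ccne2 were all lost and Cdk4 and Cdk6 passed, where 313 and 408 genes were called in place of 546. Ccnd3 was also lost without Oct4+ replicate 2 (adjusted p = 0.0636) or Pdgfra+ replicate 3 (adjusted p = 0.0542). Ccne2 was also lost without Oct4+ replicate 3, Oct4+ replicate 4 or DP replicate 2 (adjusted p = 0.10, 0.0672 and 0.0530). By width 0 of 17 passed in Oct4+ against DP nEnd (0.225%) and E2f4 alone in Oct4+ against Pdgfra+ nEnd (9.27%). In DP against Pdgfra+ nEnd 0 of 17 passed by either measure, where 0.14% of all genes did by highest coverage and 0.337% by width. Pdgfra+ nEnd replicate 2 had narrow peaks, with a median width over all its peaks of 2205 bp against 3033 to 4223 bp in the other libraries, and without it 230 in place of 330 genes passed by width in Oct4+ against Pdgfra+ nEnd, with E2f4 still among them (adjusted p = 0.0483). Without Pdgfra+ replicate 3 the count was 151 and E2f4 was lost, and without Oct4+ replicate 4 it was 218.

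Sequence motifs were counted in the 36 RefSeq promoter windows of 30 of the 40 genes. An E2F sequence lay in 8 of the 36 (22.2%), those of Cdc25a, Cdk1, Cdk2, Cdkn2a, E2f2, E2f3, E2f7 and Rbl1, against 2.27% of all 32851 windows and 4.34% of the 12573 windows that a peak covered in at least 1 library. CCAAT lay in 20 windows (55.6%, against 37.4% of all and 37.3% of covered windows) and a CHR in 9 (25%, against 19.2% and 12.4%). The E-box CACGTG lay in 5 windows (13.9%, against 7.15% and 10.2%), and the TATA box TATAAA in 1, that of Cdk6 (2.78%, against 13.6% and 6.09%). The median GC content was 64.7% in these windows against 52.7% in all. A match is a run of letters and does not show that a factor binds.

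The other genes of the pathway were read from 4 lists of 64 genes. Their limma counts stand beside shares over all genes of 17.8% higher and 18.5% lower in Oct4+ than in DP nEnd, and of 22.2% and 25.3% against Pdgfra+ nEnd. Of 16 further cyclins and kinases, 1 (Cdk14) was marked in every DP and Pdgfra+ library and in no Oct4+ library, where over all genes 4.06% and 2.7% were called for DP and Pdgfra+ nEnd in this way. In the same list 9 were marked in all 10 libraries, of which 0 passed limma by total signal as higher and 1 (Ccnk) as lower in Oct4+ than in DP nEnd, and 0 as higher and 1 (Cdk13) as lower than in Pdgfra+ nEnd. Of 24 partners and regulators, 17 were tested by limma, with 4 higher in Oct4+ than in DP nEnd (Cks2, Mybl2, Tfdp1 and Trp53) and 1 lower (Lin52), and 5 higher than in Pdgfra+ nEnd (the same with Mdm2) and 2 lower (Fzr1 and Lin52). Tfdp1 encodes a dimerization partner of the E2F proteins and Trp53 the p53 protein. Of 14 genes of S phase, 9 were tested, with 3 higher in Oct4+ than in DP nEnd (Cdt1, Mcm7 and Rrm2) and 4 higher than in Pdgfra+ nEnd (the same with Orc1), and 0 lower in either. Cdt1, Mcm7 and Orc1 act in the licensing of replication origins and Rrm2 in the supply of nucleotides. Cdc6, another licensing gene, was marked in all DP and no Oct4+ libraries, as were 4.06% of all genes. Of 10 genes of mitosis, 4 were tested and 0 passed by total signal in any pair.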

How the data were processed

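H3K4me3 was measured by CUT&Tag in 10 libraries of Oct4+, DP and Pdgfra+ nEnd, grouped by their titles. The authors aligned reads to mm10 with Bowtie2, computed coverage with BEDtools and called peaks per library with SEACR against IgG under the stringent setting, and the deposited lists give each peak's total signal (summed coverage) and highest coverage, unscaled between libraries. Tool versions in the submitters' processing notes are bcl2fastq 2.19.1, SAMtools 1.12 and bedtools 2.26.0. The depth is unknown, so no counting interval was given. The deposited consensus lists (DiffBind) hold positions only.

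Start sites were those of protein-coding transcripts of GENCODE M21 on GRCm38 (54081 sites, chromosomes 1 to 19 and X). The build was checked by the share of peaks holding a start site, 89.3 to 96.7%. A gene's promoter peak was the overlapping peak of highest total signal. Presence was compared by full separation of the libraries and by Fisher's exact test. Log2 total signal, highest coverage and width were quantile normalized over the genes tested and fitted with limma 3.58.1 (R 4.3.3, trend, 10 libraries in 1 fit), with Benjamini-Hochberg adjustment over all genes tested and a threshold of 0.05. The tests were tried on simulated data. Alternatives were another window, a 50% overlap, all transcripts, equal peak numbers, consensus lists, median centring, rank scores, genes with a peak in 2 libraries per population, a replicate block and leaving out each library.

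A gene was given its value in every library where a presence or limma test called it or where it was marked in some libraries (up to 25, the largest differences first), and promoter windows were printed, where RefSeq held one at the start site, for the presence calls, the largest limma differences and, as references, Ccnb1 and Cdk1. The E2f1 window lies inside the gene and is not shown. The 40 genes, the pathway lists and the tests were chosen with earlier results of these data known. Promoter sequences are from RefSeq, where 30 of the 40 genes matched.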

Additional observations from a re-analysis of the deposited data

Results flagged for a closer look

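In 5 of the 41 groups of 4 Oct4+ nEnd values examined, 1 library lay far from the other 3 by Dixon's criterion, which chance alone passes in about 1 group in 20. Replicate 3, the library with the shortest peak list, was the low one in 4 of them. Its promoter peak was 2946 bp wide at Ccne1 (3861 to 3997 bp in the others), 2435 bp at Ccng1 (4643 to 4852 bp) and 3182 bp at E2f2 (10322 to 11115 bp), and its percentile by total signal at Cdkn1b was 87.4 (96.0 to 97.2). Replicate 1 was the high one at Cdk1, where the peak was 6642 bp wide against 2576 to 3222 bp.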

How the results depend on the processing

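With equal numbers of peaks, presence calls among the 40 genes were 8, 11 and 3 in Oct4+ against DP, Oct4+ against Pdgfra+ and DP against Pdgfra+ nEnd, and with the consensus lists 5, 5 and 2, in place of 2, 3 and 0. Over all genes these calls were 727, 863 and 111 with equal peaks and 1748, 2097 and 813 with the consensus lists, in place of 467, 389 and 26. With a mark needed in every library, the count was 21 in DP and 17 in Pdgfra+ nEnd with equal peaks (in place of 35 and 32), and the Oct4+ nEnd consensus list held 33 (in place of 20). With genes marked in at least 2 libraries per population, limma called 16 and 22 of the 40 genes by total signal in the pairs with Oct4+ nEnd (in place of 6 and 10) and 8 and 10 by highest coverage (in place of 2 and 3), where more genes could be tested. Over all genes the calls of this fit were 2645 and 3753 by total signal (1293 and 1693), 994 and 1487 by highest coverage (443 and 546), 44 and 519 by width (8 and 330). Median centring called 1 of the 40 by highest coverage in Oct4+ against DP nEnd, and over all genes 13 higher and 0 lower by total signal in DP against Pdgfra+ nEnd (in place of 20 and 3). There the all-gene calls by highest coverage were 2 with median centring or rank scores and 1 with genes marked in at least 2 libraries (in place of 5), and by width 23 with rank scores (in place of 12). The cause of these changes was not tested.

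Leaving out each library in turn gave, in the same order of pairs, 2 to 3, 3 to 4 and 0 to 1 presence calls among the 40 genes, 5 to 10, 6 to 12 and 0 limma calls by total signal, 0 to 3, 1 to 4 and 0 by highest coverage, and 0, 0 to 1 and 0 by width. The genes with a peak in every Oct4+, DP and Pdgfra+ nEnd library were 20 to 25, 35 to 36 and 32 to 36. Over all genes the ranges were 467 to 799, 389 to 706 and 26 to 246 by presence, 873 to 1436, 1434 to 1981 and 8 to 44 by total signal, 156 to 727, 313 to 860 and 0 to 5 by highest coverage and 5 to 11, 151 to 349 and 2 to 28 by width. Of 170 such tests of the 17 calls made over genes marked in all 10 libraries by total signal or width, 154 kept their side of the threshold, and of 118 under the other alternatives 112 did, and none changed direction. The calls of E2f1, E2f4, Ccne2 and Ccng2 by total signal held in all 17 alternatives in both pairs with Oct4+ nEnd.

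Same-numbered libraries of the populations mostly, but not all, deviated together by total signal (correlations from -0.13 to 0.24 over 9 pairs, 7 of them over 0.1, with 8 of 9 libraries closest to their own number). By width 2 of the 9 pairs were over 0.1. The labels give the numbers only and do not state shared replicate sets. The main tests did not pair the libraries by number, and the same tests with a replicate block are given here. With a replicate block 6, 9 and 0 of the 40 genes were called by total signal (against Pdgfra+ nEnd with Cdk4, adjusted p = 0.00711, and without Ccnf and Cdkn1a, adjusted p = 0.0775 and 0.0701), 3, 3 and 0 by highest coverage, 0, 1 and 0 by width and 2, 3 and 0 by presence. Over all genes these were 1099, 1553 and 20, 390, 513 and 5, 8, 228 and 9, and 468, 389 and 26. The depth of the libraries is unknown. A weak peak may be missing from the Oct4+ nEnd lists, whose peaks had the lowest coverage, and from the short ones of replicates 3 and 4 in particular.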
